A study of Mus musculus with 4 samples.

Results

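The 9 genes described here, Klf4, Ovol1, Zfp750, Prdm1, Grhl1, Grhl3, Cebpa, Cebpb and Gata3, code for transcription factors of epidermal differentiation. They are a list of gene names with no threshold on a measured value, and all 9 were present among the 32285 genes of each of the 4 count matrices. Single-cell RNA sequencing (10x Genomics) had been run on cells of adult mouse back skin epidermis, with 1 library per group. Control mice carried floxed alleles of ΔNp63 (DNp63fl/fl), and the ablated mice also carried K14-CreT2 (DNp63fl/fl;K14-CreT2), a Cre driven by the keratin 14 promoter, which acts in basal keratinocytes. Mice of every group received 200 mg/kg tamoxifen by gavage on each of 5 days, so the controls share the floxed alleles and the drug and lack the Cre. The skin was taken 1 day or 1 week later. Male and female animals aged 2 to 17 months were used. The labels tie neither age, sex nor the trypsin digestion (cold or warm) to a library, and do not say how many animals went into each. A 3′ kit was used at 1 day and a 5′ kit at 1 week, so control and ablated libraries are compared within a time point only.

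The epidermis renews from a basal layer whose cells stop dividing, move up through the spinous and granular layers and end as the cornified barrier. ΔNp63, the p63 isoform of basal keratinocytes, is known both for keeping these cells proliferative and for switching on genes of stratification. Klf4 and Grhl3 are known as regulators of barrier formation, and Zfp750 as a p63 target that supports terminal differentiation together with Klf4. Ovol1 is known for taking keratinocytes out of the cell cycle. Prdm1, which codes for Blimp1, acts in late granular cells and in the upper follicle and sebaceous gland. Cebpa and Cebpb code for C/EBP factors tied to the exit from the basal layer, and Cebpb is also an early responder to stress and inflammation. Gata3 acts in the follicle lineage and in barrier lipid synthesis. Grhl1 regulates desmosomal cadherins.

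Prdm1, Grhl3 and Cebpb differed most between the libraries at 1 day, and the 250 bases before their RefSeq starts are printed for that reason (GRCm38.p6, each 5′ to 3′ on the gene's strand). Of the 9 genes, 7 were matched in the RefSeq promoter table. Capitals mark matches, on either strand, to any of 6 motifs. These were AP-1, searched as TGANTCA, the KLF motif, searched as CACCC, the GATA motif, searched as AGATAA, the GRHL motif, searched as AACCNGTT, the C/EBP motif, searched as TTGCNNAA, and a p53-family half-site. The windows are chr10:44458749-44458998 (minus strand) for Prdm1, chr4:135573633-135573882 (minus strand) for Grhl3 and chr2:167688665-167688914 (plus strand) for Cebpb.
Prdm1: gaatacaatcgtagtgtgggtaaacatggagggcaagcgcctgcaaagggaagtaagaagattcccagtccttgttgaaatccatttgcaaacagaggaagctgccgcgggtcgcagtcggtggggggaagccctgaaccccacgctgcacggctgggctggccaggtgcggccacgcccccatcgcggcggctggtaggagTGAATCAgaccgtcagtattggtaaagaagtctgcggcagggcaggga
Grhl3: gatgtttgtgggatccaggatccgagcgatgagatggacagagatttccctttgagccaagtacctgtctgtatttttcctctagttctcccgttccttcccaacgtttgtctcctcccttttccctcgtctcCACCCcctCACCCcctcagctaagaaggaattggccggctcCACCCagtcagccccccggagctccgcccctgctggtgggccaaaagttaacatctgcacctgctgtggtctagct
Cebpb: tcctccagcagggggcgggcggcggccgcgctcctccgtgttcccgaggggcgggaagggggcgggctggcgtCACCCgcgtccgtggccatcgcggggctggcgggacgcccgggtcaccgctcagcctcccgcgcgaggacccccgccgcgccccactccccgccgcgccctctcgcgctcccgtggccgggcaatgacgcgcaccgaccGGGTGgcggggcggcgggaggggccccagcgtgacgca

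The Prdm1 window held 1 match, an AP-1 motif (TGAATCA) starting 48 bases before the RefSeq start used. The Grhl3 window held 3 KLF matches, starting at -117, -109 and -76, and the Cebpb window held 2, at -177 and -38. No marked motifs overlapped in these windows. Of 32851 promoter windows of the same length, 6.75% held the AP-1 motif and 52.0% the KLF motif, which is common because it is short. The GRHL motif occurred in 1.79%, the C/EBP motif in 9.56%, the GATA motif in 9.99% and the p53-family half-site in 7.13%. In the GENCODE M21 annotation (GRCm38) the genes lie at chr10:44437177-44528501 for Prdm1, chr4:135541888-135573630 for Grhl3 and chr2:167688915-167690418 for Cebpb. The Prdm1 window therefore lies inside the annotated gene, upstream of a RefSeq start within it. The others lie at chr4:55527143-55532466 (Klf4), chr19:5549136-5560646 (Ovol1), chr11:121510978-121519333 (Zfp750), chr12:24572283-24617391 (Grhl1), chr7:35119293-35121928 (Cebpa) and chr2:9857078-9890034 (Gata3).

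The libraries held 18413 to 33552 barcodes and 68191870 to 179736563 UMIs (unique molecular identifiers, which count captured RNA molecules once each). Sums were taken over 20542 control and 17728 ablated keratinocytes (1 day), and over 6685 and 2738 (1 week). The 1-week sums also hold clusters found almost wholly in 1 library. Lyz2, Kctd12 and Icos led 784, 320 and 298 control cells against 1, 0 and 0 ablated cells, and Cfd led 1 against 365. Some had leading genes of other cell types. These were Iglv2, Ighm and Jchain in 98 control cells and Cd3e, Cd7 and Cd3g in 77. Crabp1, Pappa2 and Dkk2, also leading in 1-day fibroblast-like cells, led 146 control and 14 ablated cells. The part of these clusters in the sums was not tested. The control and ablated libraries shared 299 barcodes at 1 day and 661 at 1 week, against 9 to 18 across time points, and the part of these in the results was not tested. Trp63, the gene that codes for p63, checked the labels: in all keratinocytes its level was 404 CPM (control) against 129 (ablated) at 1 day, and 430 against 153 at 1 week. CPM is the UMIs of a gene in the summed cells, scaled to the same total in each library. The tags of the 3′ kit may lie outside the deleted part, and then give the transcript's level without showing the deletion. Values below are given in the order control, then ablated. Reads are counted per gene, so ΔNp63 cannot be told from the other isoforms. Cells led by Krt8, a keratin of simple epithelia and Merkel cells, came almost wholly from the ablated libraries, with 1 and 4781 of them (control, ablated) on day 1 and 0 and 485 a week after ablation. Of the 485, 427 were in a Krt8-led cluster and 58 in one led by Aox4, with Krt18 and not Krt8 among its top 10 genes. They were kept out of the keratinocyte sums and are described on their own. Markers of the granular layer moved with ablation in these sums: all 14 were at least 2-fold higher in the ablated library at each time point, with a summed level of 4125 against 16030 CPM at 1 day and 6051 against 24492 at 1 week. Basal markers went from 10800 to 6356 CPM at 1 day, with 6 of 13 at least 2-fold lower, and from 18705 to 15921 at 1 week, with 5 of 13 lower. Spinous markers stood at 32347 against 42680 CPM at 1 day, with 1 of 11 at least 2-fold higher and 1 lower. At 1 week they stood at 28102 against 20140, with 0 higher and 4 lower. Within classes, granular markers stood at 429 against 1291 CPM in 1-day bulge-like cells, and basal markers at 3311 against 6756 in 1-week upper follicle-like cells. Summed fibroblast markers stood at 59.2 against 63.2 CPM at 1 day and 125 against 117 at 1 week, and T cell markers at 84.9 against 46.6 and 105 against 54.4. Of the 11 T cell markers, 4 were at least 2-fold higher and 2 lower at 1 day, and none was higher and 6 were lower at 1 week. Of the 9 fibroblast markers, 7 were at least 2-fold higher with ablation at 1 day, and none was higher and 2 were lower at 1 week. Summed Langerhans cell or macrophage markers stood at 151 against 297 CPM at 1 day, with 5 of 11 at least 2-fold higher, and at 288 against 280 at 1 week. Merkel cell markers stood at 2.94 against 285 CPM and at 3.63 against 224. Krt8, which also leads the Krt8-led cells, was the highest of these 11 in the ablated sum at both times, and 3 and then 2 were at 0 in both libraries. The part of these cells' RNA in the results was not tested.

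In all keratinocytes summed, 2 of the 9 factors were at least 2-fold higher in the ablated library at 1 day, Prdm1 and Grhl3, and none was 2-fold lower. Among 14858 genes compared, 7.52% were at least 2-fold higher and 2.96% at least 2-fold lower. The median log2 ratio (ablated over control) of the 9 factors was 0.45, against 0.01 for all genes. At 1 week 1 factor was at least 2-fold higher, Prdm1, and 1 at least 2-fold lower, Gata3, where 11.4% and 6.02% of 14660 genes were. The median of the factors was then -0.07, against 0.12 for all genes. At 1.5-fold, 4 factors were higher and 1 lower at 1 day, where 14.5% and 8.0% of genes were, and 2 were higher and 1 lower at 1 week, where 22.4% and 12.4% of genes were. With 1 library per group there is no test of these differences. The 95% intervals given (exact Poisson for a level, exact Clopper-Pearson for a ratio) cover counting error only, not differences between mice.

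By class, the share of genes past 2-fold sets the scale for these counts. In spinous-like cells at 1 day 1 of the 9 factors was at least 2-fold higher, Ovol1, and none lower, where 6.82% of 10395 genes were higher and 7.38% lower. Trp63 was not lower with ablation in this class (log2 ratio 0.12). In the Serpinb12-led cells 1 was higher, Prdm1, and none lower (4.38% and 4.32% of genes). In basal-like cells Prdm1 and Grhl3 were higher and none lower (4.21% and 6.1% of genes), and so were these 2 in bulge-like cells (3.33% and 1.34%), where the Grhl3 value was -0.25 with doublets kept. None of the 9 passed in either direction in granular-like cells (9.0% and 3.71% of genes) or in upper follicle-like cells (3.12% and 1.34%). The other 9 classes at 1 day held no factor at least 2-fold lower, and from 0 to 4 that were higher. In cycling cells these were Grhl3 (1.81), Prdm1 (1.87), Zfp750 (2.02) and Cebpb (1.13), where 5.11% of genes were higher and 2.55% lower. In sebaceous-like cells they were Klf4 (1.5), Grhl3 (3.5), Prdm1 (3.89) and Zfp750 (2.22; 9.59% and 2.99% of genes), with 6 Grhl3 and 13 Prdm1 UMIs in the control sum. In the Cstdc5-led cells, 110 and 474 in number, they were Ovol1 (1.36), Grhl3 (1.92), Prdm1 (2.88) and Cebpb (1.55; 12.6% and 4.63%). In the Fst-led cells they were Grhl3 (1.62), Prdm1 (1.94) and Zfp750 (1.15; 3.93% and 1.55%). Grhl3 and Prdm1 alone passed in the Ulk4-led (12.1% and 5.51%) and Ramp1-led cells (3.84% and 2.24%), Grhl3 alone in the Aspn-led (2.18% and 1.81%), Prdm1 alone in the Ccl2-led (2.68% and 1.04%), and none in the Hbb-bs-led cells (3.4% and 5.68%). Over the 15 classes Prdm1 was at least 2-fold higher in 10, Grhl3 in 9, Zfp750 in 3, Ovol1 and Cebpb in 2 each and Klf4 in 1, while Grhl1, Cebpa and Gata3 passed in none.

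At 1 week none passed in upper follicle-like cells (5.98% and 2.2% of genes). In bulge-like cells 2 of 8 with enough UMIs were higher, Prdm1 and Cebpb, and none lower (5.29% and 2.99%). The Prdm1 value there rests on 9 and 29 UMIs and was -0.04 with doublets kept. In inner bulge or outer root sheath-like cells 5 of the 9 were higher and none lower (14.6% and 6.43% of genes): Klf4 (1.05), Ovol1 (1.24), Prdm1 (1.15, from 5 and 31 UMIs), Cebpb (2.70) and Grhl3, which had no UMI in the control. In cycling cells Grhl3 (1.78), Prdm1 (2.09), Zfp750 (1.41) and Cebpb (1.12) were higher and none lower (9.12% and 6.03%). In sebaceous-like cells Ovol1 (2.54, from 6 and 39 UMIs) and Prdm1 (1 and 27 UMIs) were higher and none lower among 8 (8.26% and 5.9%), and in the Slc7a2-led cells Klf4 (1.00) and Cebpb (1.55) among 5 (6.69% and 8.23%). None of the 9 passed in the Fst-led (3.53% and 2.91%) or Pthlh-led cells (4.11% and 1.57%), nor in the 30 control and 146 ablated granular-like cells (6.2% and 14.3%).

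**Figure D1:**
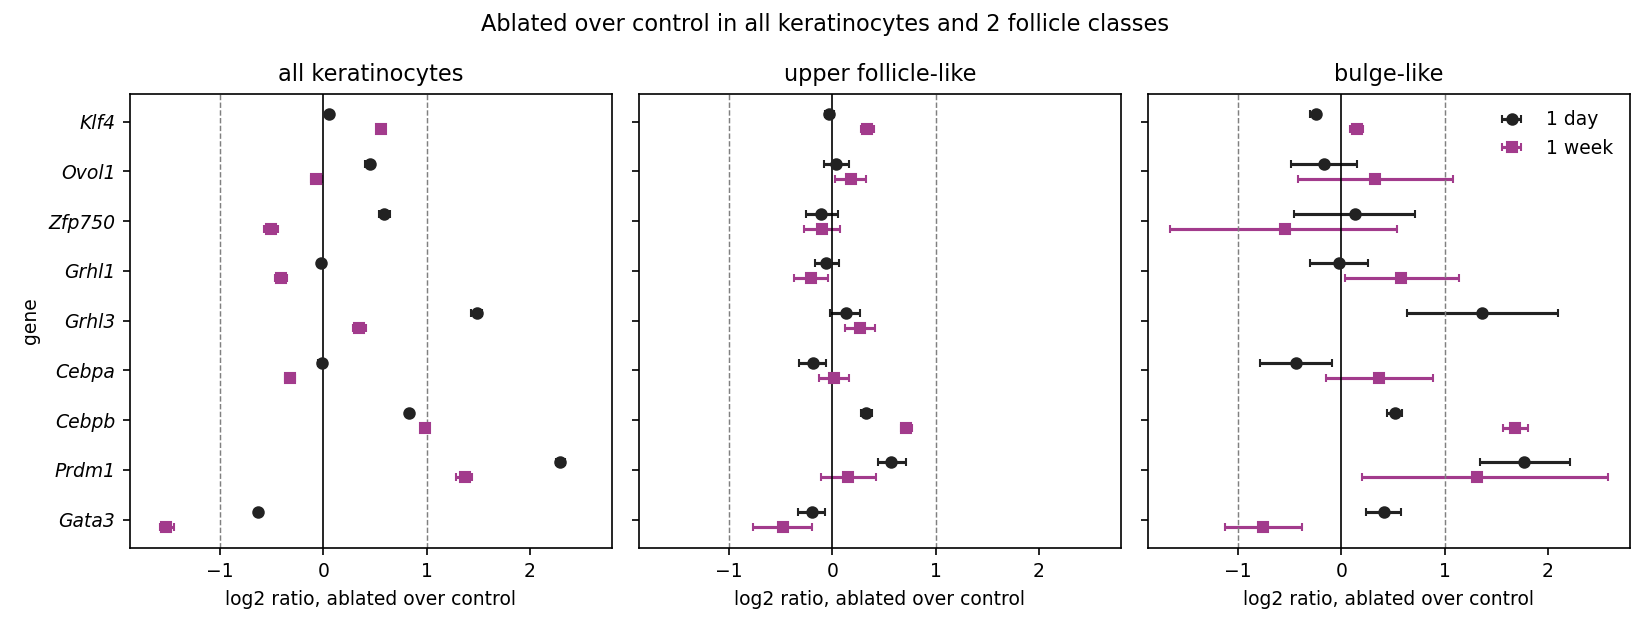
Log2 ratio of the ablated over the control library (x axis) for each factor (y axis) in all keratinocytes, upper follicle-like cells and bulge-like cells, at 1 day (black circles) and 1 week (purple squares). Bars are 95% counting intervals, dashed lines mark 2-fold, and a gene with too few UMIs has no point. In all keratinocytes Prdm1 stood farthest right at 1 day (2.29) and Gata3 farthest left at 1 week (-1.52), while all 9 upper follicle-like values lay within 2-fold.

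The classes used below come from clusters named by marker genes, and a cluster with no name, or one of several in a class, is called by its leading gene. Clone names, predicted genes and mitochondrial genes are passed over in that choice, so that the cluster called Krt79-led has a clone name ahead of Krt79. Among the latter at 1 day were cells led by Serpinb12, with the cornified envelope gene Ivl next, and cells led by the secreted protease inhibitor Slpi, whose other leading genes (Sprr2 genes, Slurp1, Klk7) belong to late differentiation. In the control library at 1 day, Ovol1, Zfp750, Prdm1 and Cebpa were at their highest in granular-like cells, each with an interval that overlapped the next class's. For Prdm1 that next class was outside the epithelium (fibroblast-like cells), and its upper follicle-like level was well below the granular-like one. Ovol1 stood at 182 CPM in granular-like and 153 in upper follicle-like cells, whose intervals overlapped, against 64.4 in basal-like and 60.4 in spinous-like cells. Zfp750 ran from 121 CPM (granular-like) through 103 (upper follicle-like) and 93.5 (spinous-like) to 10.4 in basal-like cells. Grhl1 stood at 247 and 242 CPM in Serpinb12-led and granular-like cells, which did not differ beyond their intervals, and Grhl3 at 108 and 105 in upper follicle-like and granular-like cells, which did not either. Cebpa was highest in granular-like cells (263 CPM), then Serpinb12-led (233), spinous-like (201), upper follicle-like (155) and sebaceous-like cells (137).

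By CPM, Klf4 was highest in bulge-like cells, the follicle stem cell compartment, at 1410, then upper follicle-like at 1338. Granular-like cells held 1203 (1000 with ablation, -0.27, -0.34 to -0.19) and basal-like cells only 214. The share of control cells with a Klf4 UMI, after thinning each cell to the same depth, did not keep this order. It was 75.7% in bulge-like (73.6 to 77.7), 78.2% in upper follicle-like (76.3 to 80.1) and 84.5% in granular-like cells (78.2 to 89.6). The part of cell handling in the Klf4 levels was not tested. Gata3 was highest in spinous-like (564 CPM) and basal-like cells (479), against 143 in granular-like cells. Prdm1 stood at 251 CPM in granular-like, 101 in upper follicle-like, 62.0 in spinous-like and 31.1 in basal-like cells. It was also present outside the epithelium, at 194 CPM in Langerhans cell or macrophage-like and 210 in fibroblast-like cells, and Cebpb was highest in fibroblast-like cells (2186 CPM), then granular-like (1373).

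**Figure D2:**
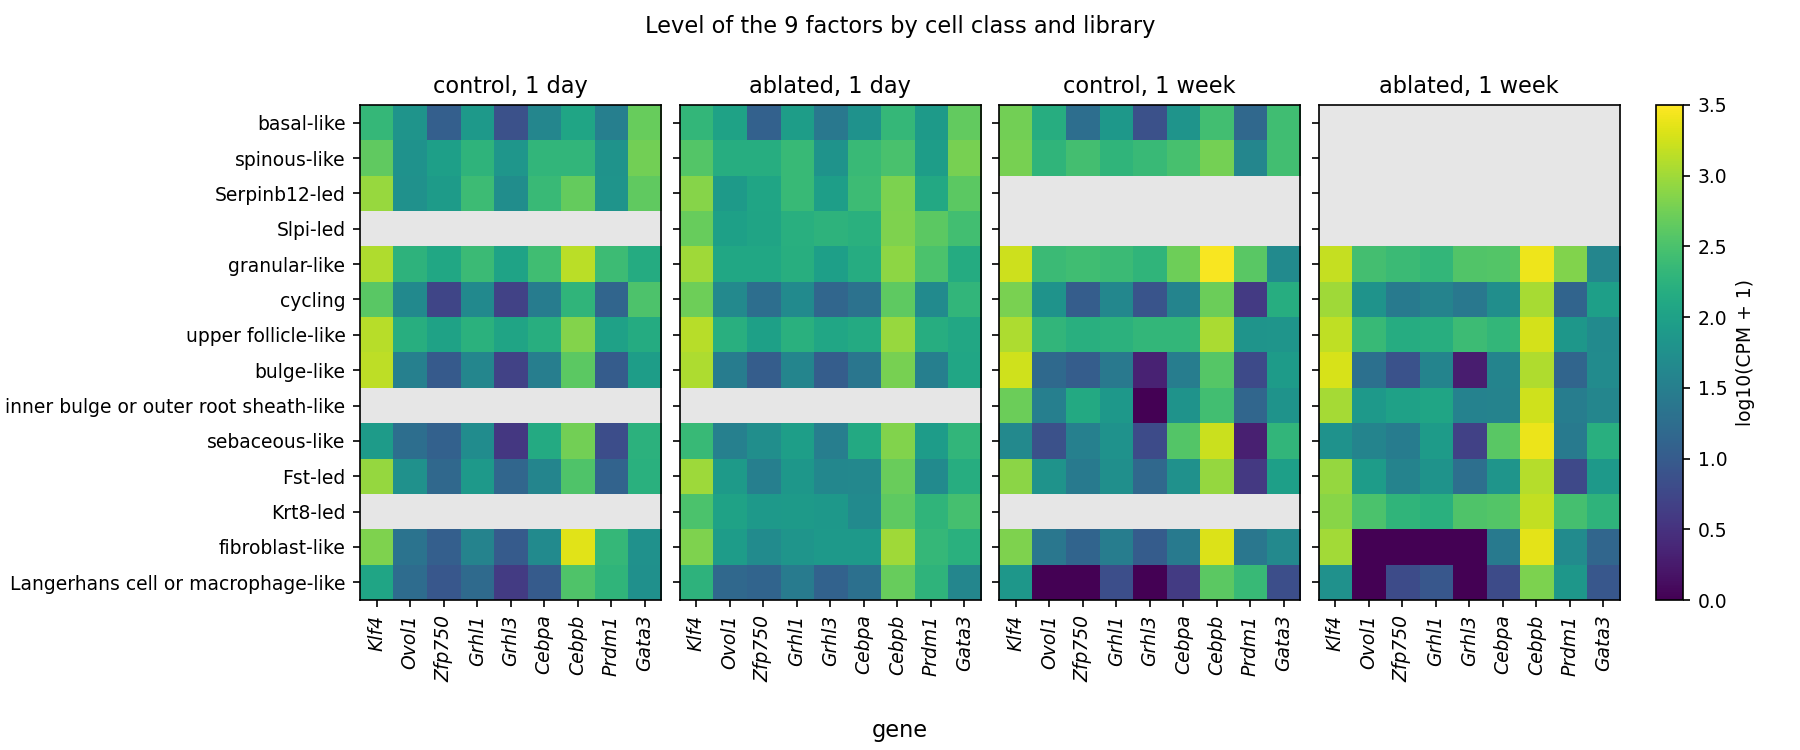
Level of the 9 factors (x axis) by cell class (y axis) in each library, as colour on a scale of log10(CPM + 1). Grey marks a class with fewer than 30 cells in that library. Klf4 is brightest in bulge-like and upper follicle-like rows at 1 day, while at 1 week its granular-like row is brighter than the upper follicle-like one. Grhl3 is dark in basal-like and bulge-like rows of the control libraries (6.47 and 3.83 CPM at 1 day). Cebpb is brighter in the 1-week bulge-like row of the ablated library (1220 CPM) than of the control (380).

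Prdm1 had the largest ratio of the 9 in the 1-day sum. In all keratinocytes at 1 day its level was 46.4 against 227 CPM, 4.9-fold higher with ablation (log2 ratio 2.29, interval 2.25 to 2.34). At 1 week it stood at 42.9 and 111 CPM (1.37, 1.29 to 1.44). Among the 15 keratinocyte classes with at least 50 cells in each 1-day library, the interval lay above 0 in 13 and below 0 in none.

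The highest Prdm1 level in the ablated library at 1 day was in the Slpi-led cells, a cluster of 5 control and 4853 ablated cells, at 416 CPM. They held 11164 of the 17345 Prdm1 UMIs of all ablated keratinocytes, and with so few control cells no ratio is read for them. After thinning each cell to 2000 UMIs, 52.5% of the ablated Slpi-led cells held a Prdm1 UMI (76.6% before, at a median depth of 4740 UMIs). In spinous-like and Serpinb12-led cells, present in both libraries, the values lay nearer. In the Cstdc5-led cells, 110 and 474 in number, the ratio was above that of all keratinocytes. Spinous-like cells, 3441 control and 317 ablated, held 62.0 and 88.1 CPM (0.51, 0.19 to 0.81), and Serpinb12-led cells, 1489 and 597, held 62.9 and 130 (1.05, 0.89 to 1.21). Trp63 differed between these classes too. It was 376 and 409 CPM in spinous-like cells, with an interval of the ratio that held 0, 204 and 133 in Serpinb12-led cells, and 34.5 in the ablated Slpi-led cells.

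Basal-like cells held 31.1 and 79.1 CPM at 1 day (1.35, 1.09 to 1.59), and granular-like cells 251 and 324 (0.37, 0.21 to 0.53). In upper follicle-like cells it was 101 and 151 CPM (0.57, 0.44 to 0.71), higher in both of their clusters: 126 and 174 in the Krt79-led one and 61.5 and 114 in the Cst6-led one. At 1 week the upper follicle-like values lay closer, at 63.6 and 70.6 CPM (0.15, -0.11 to 0.42), but clustering at Leiden resolution 2, which draws that class differently, gave 1.21. The 1-week granular-like cells, only 30 and 146 in number, held 403 and 684 CPM (0.76, 0.57 to 0.96).

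Bulge-like and sebaceous-like cells also gave high Prdm1 and Grhl3 ratios from very low levels. In bulge-like cells at 1 day Prdm1 stood at 9.36 and 31.9 CPM (1.77) and Grhl3 at 3.83 and 9.81 (1.36, but -0.25 with doublets kept). Free RNA in the droplets bears on such values. The ablated bulge-like levels were 7.67% (Prdm1) and 5.33% (Grhl3) of those in the Slpi-led cells, where 5 genes of differentiated keratinocytes (Krt1, Krt10, Sbsn, Slpi and Sprr1a) came to between 2.68% and 8.77%. In sebaceous-like cells of the ablated library Prdm1 stood at 20.6% and Grhl3 at 16.5% of the Slpi-led level, where the same 5 genes came to between 13.7% and 20.7%. In basal-like cells Prdm1 stood at 19.0% and Grhl3 at 13.2%, where they came to between 2.83% and 9.39%. The part of free RNA in these values was not tested, and the counts and means over classes include the bulge-like and sebaceous-like ones.

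Grhl3 followed Prdm1 at 1 day. Its level in all keratinocytes was 36.8 against 103 CPM, 2.8-fold higher with ablation (1.49, 1.43 to 1.54), and the interval lay above 0 in 11 of 15 classes and below 0 in none. Spinous-like cells held 68.8 and 62.5 CPM (-0.14, -0.52 to 0.22), Serpinb12-led cells 51.6 and 89.8 (0.80, 0.61 to 0.99) and the Slpi-led cells of the ablated library 184, or 4934 of its 7880 Grhl3 UMIs. After thinning, 9.08% of control and 14.7% of ablated Serpinb12-led cells held a Grhl3 UMI (38.0% and 34.7% before, at median depths of 10000 and 5450 UMIs), and 29.5% of ablated Slpi-led cells. Classes that should lack the gene held it as well: 0.712% and 2.87% of Langerhans cell or macrophage-like cells, 1.1% and 12.5% of T cell-like cells, and 0 of 79 control (interval to 4.56%) and 24 of 160 ablated fibroblast-like cells. Median depths of those cells were 2577 to 4297 UMIs. The ablated T cell-like and fibroblast-like cells also held Krt10 at 42.8% and 29.7% of the Slpi-led level, and the part of free RNA or doublets in these shares was not tested.

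Basal-like cells held 6.47 and 24.3 CPM of Grhl3 at 1 day (1.91, 1.42 to 2.38), still under the spinous-like level. Granular-like cells (105 and 93.4 CPM) and upper follicle-like cells (108 and 117 CPM) had intervals of the ratio that held 0. At 1 week the sum over keratinocytes was 96.2 and 123 CPM (0.35, 0.29 to 0.41), upper follicle-like cells held 204 and 246 (0.27, 0.12 to 0.41) and granular-like cells 191 and 351 (0.88, 0.6 to 1.16). Bulge-like cells at 1 week held 2 Grhl3 UMIs in each library, too few for a ratio. Inner bulge or outer root sheath-like cells held none in the control and 34.2 CPM with ablation, at least 4.29-fold higher against a floor of 3 UMIs in the control sum. That level was 10.1% of the one in the Krt8-led cells, and for Sprr1a the same share was 7.03%. The part of free RNA in it was not tested.

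Grhl1, the close relative of Grhl3, did not share its pattern. In all keratinocytes it stood at 129 and 128 CPM at 1 day (-0.02, -0.05 to 0.02) and at 130 and 97.6 at 1 week (-0.41, -0.47 to -0.35). At 1 day it was 187 and 230 CPM in spinous-like cells (0.30, 0.11 to 0.49), 247 and 230 in Serpinb12-led cells (-0.10, -0.21 to 0.01), and 242 and 157 in granular-like cells (-0.63, -0.81 to -0.44). Across the 15 classes at 1 day the interval lay above 0 in 5 and below 0 in 1.

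Klf4 was nearly equal in the 1-day sums, at 672 and 701 CPM (0.06, 0.04 to 0.08, and -0.04 with totals that leave out mitochondrial and ribosomal protein genes), and higher in the ablated library at 1 week, at 817 and 1203 (0.56, 0.54 to 0.58). Within classes at 1 day it ran from -0.33 in Serpinb12-led cells (925 and 735 CPM) to 0.44 in cycling cells (397 and 537), leaving aside sebaceous-like cells (81.3 and 230). At 1 week the interval lay above 0 in 7 of 8 classes with at least 50 cells in each library and below 0 in none. Among these were upper follicle-like cells, at 1169 and 1480 CPM (0.34), bulge-like cells, at 1764 and 1953 (0.15, but -0.34 with clusters at Leiden resolution 2), and inner bulge or outer root sheath-like cells, at 513 and 1060 (1.05, 0.83 to 1.28). Granular-like cells, outside that count for their 30 control cells, held 1728 and 1549 (-0.16).

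Ovol1 and Zfp750 were higher in the ablated sum at 1 day and not at 1 week. Ovol1 stood at 64.6 and 88.0 CPM in all keratinocytes at 1 day (0.45, 0.40 to 0.49) and at 131 and 125 at 1 week (-0.07, -0.12 to -0.01). Zfp750 stood at 51.5 and 77.8 (0.59, 0.54 to 0.65) and then at 119 and 83.8 (-0.51, -0.57 to -0.44). In basal-like cells at 1 day Ovol1 was 64.4 and 102 CPM (0.67, 0.46 to 0.88), while Zfp750 was 10.4 and 11.4 (0.14, -0.53 to 0.75). Spinous-like cells had both higher, Ovol1 at 60.4 and 149 CPM (1.30, 1.05 to 1.54) and Zfp750 at 93.5 and 151 (0.70, 0.46 to 0.93). In these cells the Trp63 ratio was 0.12, the highest of the 15 classes at 1 day, while its interval lay below 0 in 13 classes. How this bears on the 2 values was not tested. Serpinb12-led cells held 58.8 and 78.9 of Ovol1 (0.42) and 82.9 and 112 of Zfp750 (0.43). Granular-like cells had less Ovol1 in the ablated library, 182 and 122 CPM (-0.58), and near-equal Zfp750, 121 and 120. At 1 week, upper follicle-like cells held 199 and 226 CPM of Ovol1 and 159 and 148 of Zfp750. By class, the Ovol1 interval lay above 0 in 7 of 15 classes and below 0 in 1 at 1 day. At 1 week it lay above 0 in 5 of 7 classes with a ratio and below 0 in none, unlike the sum. For Zfp750 it lay above 0 in 7 of 15 and then in 2 of 7, and below 0 in 0 at both times.

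Cebpb was higher in the ablated library at both time points. In all keratinocytes it stood at 356 and 632 CPM at 1 day (0.83, 0.81 to 0.85) and at 780 and 1545 at 1 week (0.99, 0.97 to 1.01). At 1 day the interval lay above 0 in 13 of 15 classes, among them basal-like (114 and 210 CPM), spinous-like (201 and 312), Serpinb12-led (472 and 640), bulge-like (420 and 601) and upper follicle-like cells (715 and 899). The exception below 0 was the granular-like class, at 1373 and 810 CPM (-0.76, -0.84 to -0.69). That class joins a cluster of 169 control and 592 ablated cells and an Lce1m-led cluster of 8 and 283, and the part of this mix in its lower values at 1 day (Cebpb, Cebpa, Grhl1, Ovol1 and Klf4) was not tested. The Aspn-led class held 867 and 870 CPM. Outside the epithelium at 1 day, Cebpb was lower with ablation in fibroblast-like cells, at 2186 and 1015 CPM (-1.11, -1.23 to -0.99). Keratinocyte genes were higher in the same cells, with Krt10 at 1468 and 3542 CPM, Krt14 at 1355 and 3051 and Sprr1a at 849 and 5696, and their part in the lower Cebpb value was not tested.

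At 1 week the Cebpb interval lay above 0 in all 8 classes with at least 50 cells in each library, with log2 ratios of 0.56 to 2.70. The highest was in inner bulge or outer root sheath-like cells, at 274 CPM (75 control cells) against 1779 (113 ablated cells), 6.5-fold higher (2.70, 2.41 to 3.0). Next came bulge-like cells, at 380 and 1220 CPM, 3.21-fold higher (1.68, 1.56 to 1.81). After thinning, 40.9% of control and 71.2% of ablated bulge-like cells held a Cebpb UMI (57.5% and 85.6% before, at median depths of 4284.5 and 4765 UMIs). In upper follicle-like cells it was 1143 and 1873 CPM (0.71, 0.66 to 0.77), with cycling cells at 512 and 1115 (1.12), sebaceous-like cells at 1667 and 2492 (0.58) and the Fst-led cells at 887 and 1304 (0.56). Classes with fewer control cells were not higher: granular-like cells held 2920 and 2589 CPM (-0.17) and the Krt6b-led cells, 24 in the control, 1730 and 1363 (-0.34).

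In the 1-week ablated library, which held hardly any spinous-like cells, free RNA was read against the Krt8-led cells. The bulge-like level of Cebpb was 81.1% of theirs, and that of Sprr1a, the only other gene given here, 0.68%. The Krt8-led cells held less Cebpb than granular-like, sebaceous-like and upper follicle-like cells of that library. The part of free RNA in the bulge-like Cebpb value was not tested. Outside the epithelium at 1 week, Cebpb was higher in Langerhans cell or macrophage-like cells, at 411 and 652 CPM (0.67, 0.36 to 0.98). After thinning, 46.5% of 71 control and 48.1% of 52 ablated of these cells held a Cebpb UMI (62.0% and 65.4% before, at median depths of 4428 and 6788.5 UMIs). Fibroblast-like cells held 2085 and 2258, with an interval of the ratio that held 0 (0.12, -0.03 to 0.26). Fos, Jun and Atf3, which respond to cell handling, were read beside it. In all keratinocytes Fos stood at 309 and 584 CPM at 1 day and 1106 and 2010 at 1 week, Jun at 646 and 608 and then 1050 and 1412, and Atf3 at 333 and 457 and then 930 and 942. In bulge-like cells at 1 week Fos was 6040 and 6538 CPM (0.11), with Jun (-0.30) and Atf3 (-0.24) lower in the ablated library. In upper follicle-like cells Fos was 516 and 1111. The part of handling in the Cebpb values was not tested.

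Cebpa, the other C/EBP factor, was not higher in the sums. It stood at 117 and 116 CPM in all keratinocytes at 1 day (-0.01, -0.05 to 0.03) and at 183 and 147 at 1 week (-0.32, -0.37 to -0.27). Granular-like cells at 1 day held 263 and 144 CPM (-0.87, -1.05 to -0.69), while spinous-like cells held 201 and 235 (0.22, 0.03 to 0.41) and basal-like cells held 39.0 and 60.5 (0.64, 0.35 to 0.91). Sebaceous-like cells, where C/EBP factors belong to the lipid programme, were near equal at both times, at 137 and 133 CPM and at 364 and 404.

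Gata3 was lower in the ablated sums, at 348 and 225 CPM at 1 day (-0.63, -0.66 to -0.60) and 199 and 69.4 at 1 week (-1.52, -1.58 to -1.45). Classes differed in this. At 1 day basal-like cells held 479 and 461 CPM (-0.05, -0.15 to 0.04) and granular-like cells 143 and 143. Spinous-like cells held 564 and 611 (0.12), Serpinb12-led cells 437 and 414 (-0.08), and the Slpi-led cells of the ablated library 274. Over the 15 classes the interval lay below 0 in 4 and above 0 in 3. Cycling cells were lower, at 330 and 198 (-0.74, -0.85 to -0.63), and bulge-like cells higher, at 87.2 and 116 (0.41, 0.24 to 0.58, but -0.82 with doublets kept). At 1 week the interval lay below 0 in 4 of 8 classes and above 0 in none, among them bulge-like (81.2 and 48.1 CPM), cycling (152 and 94.0) and upper follicle-like cells (65.8 and 47.0). The 1-week cycling class joins a cluster of 123 control and 343 ablated cells and one of 144 and 2, and the part of that mix in its Gata3 and Cebpb values was not tested.

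The 1-week sums mix unlike cells. Basal-like and spinous-like cells, the classes with most Gata3 in the controls of 1 day, numbered 1884 and 726 in the 1-week control but 18 and 7 with ablation, so no ratio is read for them. Counting each class once instead of each cell, the mean log2 ratio over those of the 8 classes with at least 20 UMIs of the gene was -0.46 for Gata3 (-1.52 in the sum), 0.8 for Ovol1 (-0.07), 0.29 for Grhl1 (-0.41), 0.16 for Cebpa (-0.32) and 0.05 for Zfp750 (-0.51). The sign of Ovol1, Grhl1, Cebpa and Zfp750 thus depended on the averaging, and that of Ovol1 also on whether Krt8-led cells were counted. That of Prdm1 (1.53 and 1.37), Cebpb (1.19 and 0.99), Grhl3 (0.75 and 0.35, with 4 classes in the mean) and Klf4 (0.54 and 0.56) did not. The median over classes at 1 week was -0.2 for Zfp750, the sign of its sum, and 0.46, 0.39 and 0.23 for Ovol1, Grhl1 and Cebpa. For Prdm1 it was 1.15, below the sum, and its mean over 7 classes held sebaceous-like cells at 4.6, from 1 control UMI. The highest Zfp750 ratio, 1.41, was that of cycling cells. At 1 day the mean over 15 classes was 1.42 for Prdm1 (2.29 in the sum), 1.23 for Grhl3 (1.49), 0.57 for Cebpb (0.83) and -0.04 for Gata3 (-0.63).

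**Figure D3:**
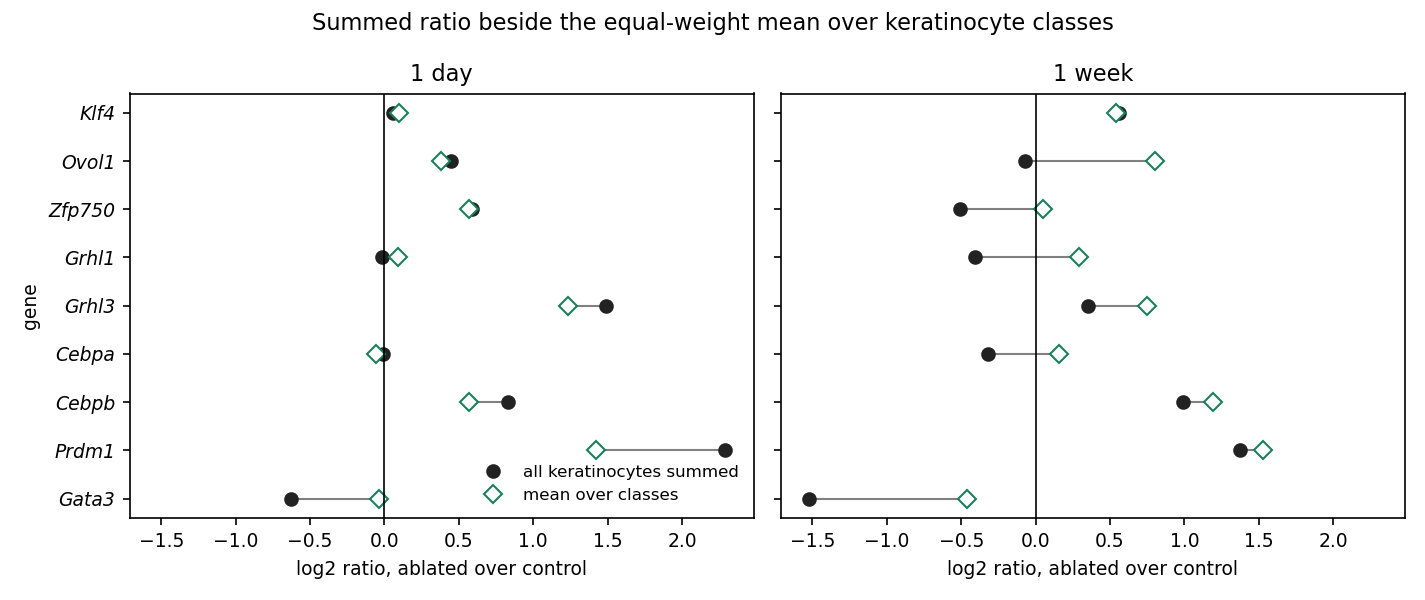
Log2 ratio of the ablated over the control library (x axis) for each factor (y axis), from all keratinocytes summed (black circles) and as the mean that counts once each keratinocyte class with at least 20 UMIs of the gene (open green diamonds), at 1 day and 1 week. The pair lies close for Klf4. At 1 week Gata3 sits at -1.52 in the sum and -0.46 in the mean, and 4 other factors cross 0.

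Each 1-day library also held counts of 4 hashtags, the antibody barcodes used to mark pooled cells. The fourth was nearly empty, with 2256 and 1425 counts, and the first 3 were used. The labels do not say what each hashtag marks, so these are shown as values with no test. Keratinocytes with 1 clear hashtag numbered 3921 to 4304 per control hashtag and 1777 to 2147 per ablated one, of 20542 and 17728 in all. In upper follicle-like cells they numbered 434 to 606 per control hashtag (of 2019) and 191 to 247 per ablated one (of 1620). In bulge-like cells they numbered 42 to 64 (of 2547) and 33 to 50 (of 1529). The hashtag values thus cover a part of the cells that differs by library and class. Prdm1 stood at 30, 58.6 and 57.4 CPM in the 3 control hashtags and at 238, 285 and 215 in the ablated ones. Grhl3 stood at 31.7, 41.6 and 41.0 against 117, 114 and 101, and Cebpb at 373, 321 and 366 against 664, 688 and 591. Zfp750 stood at 53.4, 52.9 and 48.3 against 78.2, 77.3 and 80.7. For these 4 factors no control hashtag reached the lowest ablated one.

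The other 5 overlapped. Gata3 stood at 247, 528 and 329 CPM in the control and 205, 208 and 285 in the ablated hashtags, and Ovol1 at 46.4, 88.9 and 56.9 against 80.0, 83.4 and 83.1. Klf4 stood at 706, 529 and 651 against 595, 771 and 625, Cebpa at 95.2, 161 and 116 against 108, 139 and 139, and Grhl1 at 126, 145 and 141 against 126, 149 and 133. Within the control library, hashtag 2 was the highest for Gata3, Ovol1, Cebpa, Grhl1, Prdm1 and Grhl3 and the lowest for Klf4 and Cebpb. In upper follicle-like cells Prdm1 stood at 59.1, 145 and 135 in the control and 166, 154 and 156 in the ablated hashtags, and Cebpb at 650, 817 and 748 against 1011, 868 and 997. Neither pair overlapped there, although the gap for Prdm1 was small beside the low value of control hashtag 1. Grhl3 and Zfp750, which separated in all keratinocytes, overlapped in upper follicle-like cells. Grhl3 stood at 73.7, 116 and 133 against 112, 112 and 128, and Zfp750 at 96.4, 119 and 91.4 against 116, 81.0 and 79.4.

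**Figure D4:**
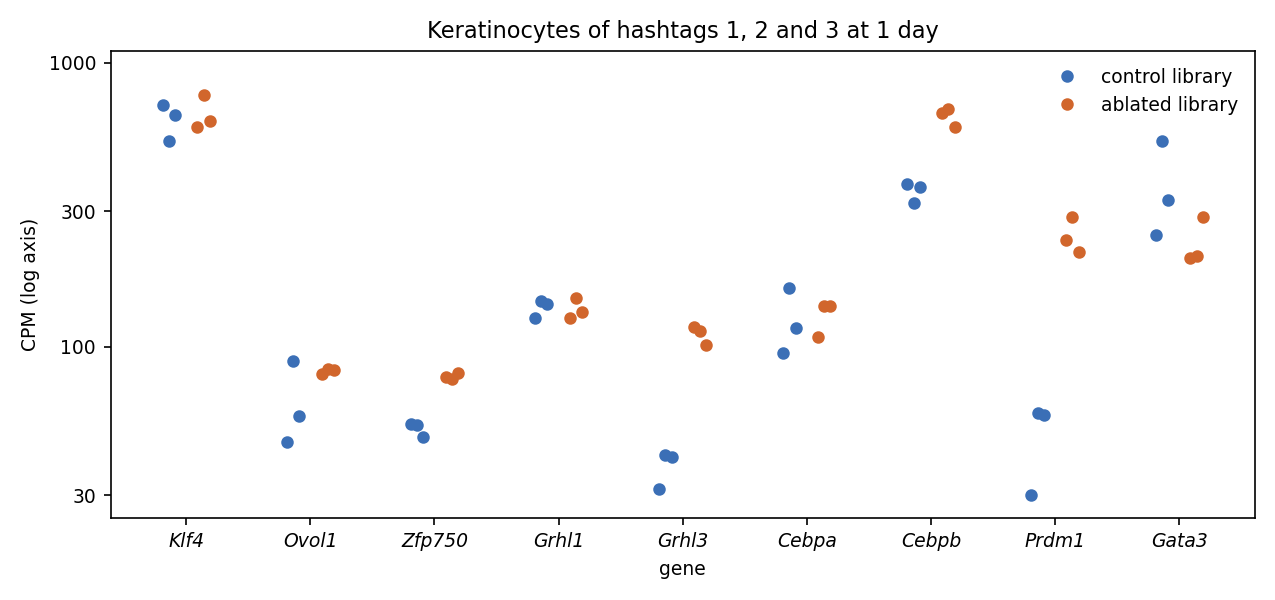
Level in CPM (log y axis) of each factor (x axis) in keratinocytes of hashtags 1, 2 and 3, left to right, in the control (blue) and ablated (orange) 1-day libraries. Each point is 1 hashtag of 1 library. Prdm1, Grhl3, Cebpb and Zfp750 separate by library, and the other 5 factors overlap.

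The Krt8-led cells, all but 1 of them from ablated libraries, carried the factors as well. At 1 day their levels were 318 CPM for Klf4, 102 for Ovol1, 76.9 for Zfp750, 193 for Prdm1, 79.9 for Grhl1, 73.5 for Grhl3, 46.2 for Cebpa, 427 for Cebpb and 290 for Gata3, with Trp63 at 57.1. At 1 week they were 744 for Klf4, 319 for Ovol1, 195 for Zfp750, 293 for Prdm1, 168 for Grhl1, 339 for Grhl3, 368 for Cebpa, 1504 for Cebpb and 188 for Gata3, with Trp63 at 49.0. There is no control class to set these against. Within the 1-week ablated library, Ovol1 stood higher in them than in upper follicle-like cells (226), while its interval (306 to 333) overlapped that of granular-like cells (288, 267 to 310). Gata3 was higher in the Krt8-led cells than in granular-like (39.0) and upper follicle-like cells (47.0). Counting these cells as keratinocytes moved the 1-week Ovol1 ratio from -0.07 to 0.28.

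Of 48 other regulators of epidermal differentiation, 5 were at least 2-fold higher in the ablated sum at 1 day and none lower, where 7.52% and 2.96% of all genes were, with a median of 0.24. The highest ratios were those of Elf5 and Elf3, ETS factors of differentiated epithelia. Elf5 stood at 1.09 and 19.8 CPM (4.18), Elf3 at 4.03 and 69.4 (4.10) and Ehf at 212 and 508 (1.26). Notch2, a receptor that drives spinous fate, stood at 30.9 and 74.4 (1.27), and the homeobox gene Dlx3 at 1.83 and 4.28 (1.23). At 1 week 12 were higher and 3 lower, where 11.4% and 6.02% of all genes were. Elf3 (6.77 and 138 CPM, 4.35) and Elf5 (1.58 and 24.0, 3.92) led again, followed by Cebpd, another C/EBP gene (81.2 and 295, 1.86), Barx2 (63.9 and 213, 1.74), Dlx3 (2.60 and 8.39, 1.69) and Id1 (78.7 and 202, 1.36). Among the lower ones were Satb1, a chromatin organizer (32.1 and 6.17 CPM, -2.38), and Rora, a nuclear receptor (293 and 142, -1.05).

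Barrier genes are the kind of gene these factors act on. Of 30, 12 were at least 2-fold higher at 1 day and none lower (median 0.86), and 10 were higher and 3 lower at 1 week (median 0.72). Klk7, a protease of cornified cell shedding, stood at 329 and 3103 CPM at 1 day (3.24) and 234 and 2009 at 1 week (3.10). Alox12b, a lipoxygenase of the lipid barrier, stood at 26.2 and 144 (2.45) and at 22.6 and 117 (2.37). The next largest at 1 day were Klk5 (2.34), Cldn4 (2.25), Lipk (2.16) and Nccrp1 (1.91), and at 1 week Lipk (4.15), Nccrp1 (3.28), Casp14 (2.10) and Lipn (2.03). At 1 week Ivl, the cornified envelope protein involucrin (192 and 62.7 CPM, -1.62), Dsg1a (569 and 198, -1.52) and Sptlc3 (102 and 39.3, -1.38) were lower. Ivl was a leading gene of 1-week clusters led by Kctd12 (320 control and 0 ablated cells) and Icos (298 and 0). Klk7 was a leading gene of the 1-day Slpi-led cells (5 and 4853). The part of clusters found almost wholly in 1 library in these sums was not tested. Within bulge-like cells at 1 day 11 of 27 with enough UMIs were at least 2-fold higher and 1 lower (median 0.54), where 3.33% of all genes were higher. In spinous-like cells it was 10 of 30 and 1 lower (median 0.14, 6.82% of genes higher), and in upper follicle-like cells 5 of 29 and none lower (median 0.34, 3.12%). At 1 week it was 5 of 16 and 1 lower in bulge-like cells (median 0.21, 5.29%) and 2 of 28 and none lower in upper follicle-like cells (median -0.18, 5.98%). The part of free RNA in the bulge-like counts was not tested. The members of these lists were chosen with results of these data known, and 7.52% and 11.4% of all genes were at least 2-fold higher at 1 day and 1 week.

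Likeness of pattern was measured as Pearson's r of log2(CPM + 1) over named classes, each class in each library being 1 point, 20 points at 1 day and 12 at 1 week. The 10 classes at 1 day included T cell-like, fibroblast-like and Langerhans cell or macrophage-like cells. The 6 at 1 week included the last of these and no basal-like, spinous-like or granular-like class. The points share libraries and depth, so r is a description only. Sqstm1, a selective autophagy receptor, was among the 3 genes most like Prdm1 at both times (0.926 and 0.928). The nearest gene at 1 day was Endou for Grhl3 (0.976), Eppk1 for Grhl1 (0.966), Adgrf2 for Zfp750 (0.957), Abhd17c for Ovol1 (0.963), Slc41a1 for Klf4 (0.92), Foxo3 for Cebpb (0.889) and Eif3b for Gata3 (0.922). At 1 week it was Lcn2, an antimicrobial lipocalin, for Cebpb (0.923), Klf3 for Klf4 (0.968), Card14 for Grhl3 (0.967), Mdfic for Prdm1 (0.95), Gskip for Grhl1 (0.981), Bicdl2 for Zfp750 (0.936), Sh2d4a for Ovol1 (0.984), Pik3c2b for Cebpa (0.967) and Cdca7 for Gata3 (0.974).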

How the data were processed

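Matrices of UMI counts per gene and barcode were deposited by the authors, raw and not normalized per the file headers and values. Per the submitters' processing notes they came from Cell Ranger 5.0.1 on mm10, and Seurat was used; other steps are not given in the sources used here. The 1-day matrices also held counts of 4 hashtags, the last nearly empty (2256 and 1425 counts).

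Cells had at least 500 UMIs and 300 genes and at most 15% mitochondrial UMIs. Doublets were removed by score at 0.8% per 1000 barcodes (14.7 to 26.8% of cells), since the automatic threshold of Scrublet had worked in 1 library only (19.4%). Each time point was clustered by itself with scanpy 1.11.5 (2000 variable genes, 30 components, 15 neighbours, Leiden resolution 1). At 1 week only cells with at least 3000 UMIs were clustered, which set aside 64.3% of control and 77.8% of ablated cells. Clusters were named by marker lists, and, except for basal-like cells, only with at least 2 of the class's own markers among their top 10 genes by fold. That UMI limit and the limits for naming were set after the data were seen.

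Counts were summed per class and library and given as CPM. A ratio needed at least 20 UMIs over both sums. Class comparisons needed 30 cells per library, and counts of classes 50. Totals per library and counting error set the precision. There is no replicate, so no test was run. The scripts were tested on simulated data. Members and lists were chosen with earlier results of these data known. All 9 factors are named. Other regulators and barrier genes are named where they were at least 2-fold apart with 100 UMIs or more, up to 6 per list, direction and time point. Like genes are the first per factor, or those found at both times among 3. Of the genes these rules name, 2 are not reported here. Alternatives were another scaling (TMM, edgeR 4.0.16), other totals, other averages, doublets kept, Leiden resolution 2, and other thresholds. Positions are from GENCODE M21 (GRCm38) and promoter sequences from RefSeq (GRCm38.p6).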

Additional observations from a re-analysis of the deposited data

Results flagged for a closer look

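Several factors had counting intervals on opposite sides of 0 at the 2 time points. The difference between time points was not tested, and the kits differ. In all keratinocytes the log2 ratio of Ovol1 was 0.45 at 1 day and -0.07 at 1 week, and that of Zfp750 was 0.59 and -0.51. The 1-week signs depended on the averaging, and that of Ovol1 also on whether Krt8-led cells were counted. Over 13 alternatives Ovol1 ran from -0.2 to 0.8 and Zfp750 from -0.64 to 0.05. At 1 day they ran from 0.34 to 0.54 and from 0.49 to 0.7. In bulge-like cells Klf4 stood at -0.25 and then 0.15, and Gata3 at 0.41 and then -0.76. With doublets kept, the 1-day bulge-like values were 0.14 for Klf4 and -0.82 for Gata3, and clusters at Leiden resolution 2 gave -0.34 for Klf4 at 1 week (the cause was not tested). Cebpa in cycling cells stood at -0.53 and then 0.52. The 1-week cycling class joins a cluster of 123 control and 343 ablated cells and one of 144 and 2, and the part of that mix was not tested.

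The hashtags of the 1-day libraries lie outside the main measurement and were assigned to only a part of the keratinocytes. For 4 factors the lowest hashtag of the ablated library stood above every hashtag of the control: 101 CPM for Grhl3, 215 for Prdm1, 77.3 for Zfp750 and 591 for Cebpb.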

How the results depend on the processing

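No paired analysis was possible because each group has 1 library. Leaving out a replicate was not possible for the same reason. In all keratinocytes at 1 day, the ratio of Prdm1 ran from 1.42 to 2.38 over 14 alternatives, Grhl3 from 1.23 to 1.59 and Cebpb from 0.57 to 0.89. At 1 week Cebpb ran from 0.85 to 1.19 and Prdm1 from 1.2 to 1.78 over 13 alternatives, while Gata3 ran from -1.65 to -0.46. The settings on hashtags, on at least 20 UMIs of the gene per class and those within follicle classes were chosen after seeing the data. At 1 week, requiring 3000 UMIs changes nothing, because that limit was already in force. TMM scaling moved the median of all genes at 1 week from 0.12 to -0.01.

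With a 1.5-fold threshold, 4 of the 9 factors were higher and 1 lower at 1 day, 14 other regulators (12 higher) and 19 barrier genes (18 higher) passed, where 14.5% of all genes were higher and 8.0% lower, and at 1 week 2 factors were higher, where 22.4% of all genes were. The median of the factors at 1 day moved from 0.45 to 0.34 (totals without mitochondrial and ribosomal genes), 0.38 (either mean over classes, or cells with 1 hashtag), 0.39 (mean of per-cell CPM), 0.5 (all cells, or doublets kept) and 0.54 (Leiden resolution 2). At 1 week it moved from -0.07 to -0.2 (TMM), -0.14 (those totals), -0.0 (per-cell mean), 0.2 (all cells), 0.28 (Krt8-led cells counted), 0.36 (mean over classes), 0.54 (mean over classes with at least 20 UMIs of the gene) and 0.26 (Leiden resolution 2). Either mean over classes gave 3 other regulators past 2-fold at 1 day, and 0 factors lower and 2 higher at 1 week. It gave 3 other regulators at 1 week, or 5 with at least 20 UMIs of the gene. The per-cell mean and Leiden resolution 2 also gave 2 factors higher at 1 week. With doublets kept, the bulge-like ratio was -0.25 for Grhl3 at 1 day and -0.04 for Prdm1 at 1 week, both reversed; the cause was not tested. Depth limits the low levels: at 1 week the bulge-like Prdm1 ratio rests on 9 and 29 UMIs.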
